A study of Mus musculus with 39 samples.

Results

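The contacts described here are those that the mouse α-globin locus made with the rest of its own chromosome at distances of more than 1 Mb. They were read from 12 viewpoints of NG Capture-C, an assay in which nuclei are fixed, the DNA is cut with DpnII at GATC, ends held close together are ligated, and ligation products of chosen fragments are pulled down with oligonucleotides and sequenced. A viewpoint is a captured fragment, a target is the DpnII fragment that a read reports as ligated to it, and a target belonged to the set when it lay on chr11 with its midpoint more than 1 Mb from the viewpoint that reported it. Of 1254901 DpnII fragments with a read anywhere in the genome, 187329 were on chr11 and 174356 of these met the rule from at least 1 viewpoint. The mm9 sequence of chr11 holds 295450 DpnII fragments, of which 290342 lie more than 1 Mb from every viewpoint, so that long-range targets were sampled sparsely.

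The α-globin cluster of the mouse lies in the upstream part of chr11, about 32 Mb from the start of the sequence, and its genes Hba1 and Hba2 are driven in erythroid cells by upstream enhancers called MCS-R1 to R4. In erythroid cells the genes and their enhancers fold into a self-interacting domain flanked by sites bound by CTCF, an architectural DNA-binding protein. Contacts within a chromosome become rarer with distance, and beyond the domain a locus meets other megabases mostly according to whether both sit in active, gene-rich chromatin or in inactive chromatin. The viewpoints, from the upstream end, were the flanking fragment EX, the CTCF site HS39_5, MCS-R1, the fragment E, MCS-R2, the promoters of Hba1 and Hba2, the fragment A, the CTCF sites +44 and +48, and the fragments C and CX. EX, E, A, C and CX were captured together in libraries labelled for the FISH probes and are called the FISH probe fragments.

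Cell types, stages of differentiation and genotypes were compared in 4 ways, each from its own sequenced libraries. E14 mouse embryonic stem cells (mES, strain 129/Ola) were set against erythroblasts cultured from mid-gestation foetal liver (MFL, strain C57Bl6) 30 h after transfer to differentiation medium, from MCS-R1 and R2 and, in other captures, from EX, E, A, C and CX; whether both captures used the same cells is not stated in the labels. MFL cells at 0 h and 30 h of differentiation were compared from Hba1, Hba2 and HS39_5, and MFL cells at 30 h with homozygous deletion of both MCS-R1 and R2 (DKO) were compared with wild type (WT) from Hba1, Hba2 and the 3 CTCF sites. Each of these groups had 3 biological replicates. Single libraries covered MFL cells lacking both α-globin genes (AMKO) with a WT partner, and MFL cells left untreated or given DMSO or DRB, an inhibitor of RNA polymerase II elongation, for 3 h. All MFL populations were expanded in culture, depleted of Ter119-expressing cells and sorted by CD44 and size. For the MFL libraries seen from R1 and R2, 1 label gives 30 h and another 0 h, and 30 h is used here. Cell type and mouse strain cannot be told apart in the comparison of mES with MFL, and a change in every cell cannot be told apart from a change in the mixture of cells.

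Before the values, part of the HS39_5 viewpoint and a target fragment in each of 3 contacted regions are given as examples of the sequences captured and reported. The HS39_5 stretch is the first 124 bp of a fragment of 251 bp, so its second DpnII site is not shown. Each is the plus strand of mm9, with the DpnII site in capitals. The viewpoint stretch chr11:32137176-32137299 lies in Nprl3, in an intron of its coding transcripts that a retained-intron transcript includes as exon. The fragment chr11:58768005-58768154 lies 33 bp from the nearest annotated start, that of Trim17, and overlaps the pseudogene Hist3h2bb-ps. The fragment chr11:77887818-77888052 covers parts of 2 coding exons of Eral1. The fragment chr11:102228916-102229047 is intergenic, 1399 bp from the start of Slc4a1.
HS39_5 viewpoint: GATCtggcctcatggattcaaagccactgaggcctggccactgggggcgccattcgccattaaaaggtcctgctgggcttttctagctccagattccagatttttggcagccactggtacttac
58.7 Mb target: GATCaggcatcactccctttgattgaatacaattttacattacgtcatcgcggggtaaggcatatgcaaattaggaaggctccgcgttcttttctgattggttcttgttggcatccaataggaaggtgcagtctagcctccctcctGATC
77.8 Mb target: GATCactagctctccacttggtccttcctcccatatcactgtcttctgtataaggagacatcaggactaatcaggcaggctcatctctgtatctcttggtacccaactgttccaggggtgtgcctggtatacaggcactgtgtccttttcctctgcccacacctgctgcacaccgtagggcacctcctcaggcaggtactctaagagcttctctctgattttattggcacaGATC
102.2 Mb target: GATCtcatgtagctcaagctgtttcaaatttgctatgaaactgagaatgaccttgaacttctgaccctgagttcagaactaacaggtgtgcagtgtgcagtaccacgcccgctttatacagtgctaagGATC
Reads of the targets were summed over Hba1, Hba2 and the 3 CTCF sites, and the part that came from HS39_5 is not given. The 58.7 Mb fragment was 26.6 Mb from the viewpoints and held 11 reads in the 3 WT replicates and 0 in the 3 DKO replicates, which allows up to 3 by counting error. The 77.8 Mb fragment, 45.7 Mb away, held 12 reads in WT and 1 in DKO. The 102.2 Mb fragment, 70.0 Mb away, held 5 and 0. Each target was the short fragment with the most WT reads in its 100 kb window, outside untranslated regions. That choice favours WT over DKO, so these counts are descriptions. Most WT fragments held fewer reads. In the WT libraries 53.6% of the long-range fragments with reads had 1 read and 89.1% had 3 or fewer. In the mES libraries seen from R1 and R2 80.4% had 1 read. All comparisons were therefore made on reads summed over fragments.

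The depth per viewpoint and replicate was 31013 to 46510 reporter reads in mES and 5332 to 16459 in MFL from R1 and R2, 72325 to 199192 in mES and 17775 to 51745 in MFL from the FISH probe fragments, 21426 to 54757 at 0 h and 9197 to 25486 at 30 h, and 25517 to 67343 in WT and 23333 to 60997 in DKO. The share of reads that fell on chr11 at all was 84.4% in mES and 66.4% in MFL from R1 and R2, 82.7% and 66.1% from the FISH probe fragments, 58.8% at 0 h and 56.1% at 30 h, and 71.0% in WT and 71.4% in DKO. WT replicate 1 stood apart from the other WT libraries, with 64.7% on chr11 against 72.1% and 76.3%. The share beyond 1 Mb is given as a percentage of chr11 reads, so that reads on other chromosomes do not enter it. With 3 replicates against 3, the two-sided exact permutation test used for single values cannot go below p = 0.1, which it gives whenever the groups do not overlap.

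Erythroblasts placed more of their chr11 contacts beyond 1 Mb than mES cells. Averaged over R1 and R2, the long-range share was 21.3%, 25.6% and 22.4% in the mES replicates (23.1% ± 2.24, SD, n = 3) and 31.2%, 29.9% and 30.4% in the MFL replicates (30.5% ± 0.65, SD, n = 3), groups that did not overlap (exact permutation p = 0.1). From the FISH probe fragments it was 22.6%, 26.1% and 23.5% in mES and 35.8%, 35.2% and 34.7% in MFL, again without overlap (exact permutation p = 0.1). In both panels mES replicate 2 had the highest long-range share and the lowest share of reads on chr11 among the mES replicates. The total used as denominator changed the size of the difference. Taken over all reads of the genome, the share was 19.4% in mES and 20.3% in MFL from R1 and R2, a difference of 0.847 percentage points (exact permutation p = 0.2), and 19.8% and 23.5% from the FISH probe fragments (exact permutation p = 0.1).

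The viewpoints differed from each other in MFL and not in the same way in mES. In mES the 5 FISH probe fragments had long-range shares of 21.9% to 27.0%. In MFL, E, between the enhancers R1 and R2, had 21.6%, 22.0% and 20.7%, while C and CX, downstream of the +48 CTCF site, had 46.8%, 45.4% and 45.2%, and 49.4%, 49.5% and 48.6%. EX was at 30.4% ± 0.79 and A at 29.4% (means, n = 3) in MFL. The mES and MFL replicates did not overlap from EX, A, C and CX (exact permutation p = 0.1, adjusted 0.125 over the 5 viewpoints), and overlapped from E, at 22.2% ± 1.77 in mES and 21.4% ± 0.63 in MFL (SD, n = 3, exact permutation p = 0.6). Within each replicate, the log2 ratio of the share from C to that from E was 0.22, 0.19 and 0.20 in mES and 1.11, 1.05 and 1.12 in MFL (exact permutation p = 0.1, a contrast chosen after the values were seen). In MFL the fragments downstream of the CTCF sites thus had a larger part of their chr11 reads beyond 1 Mb than the fragment between the enhancers, and in mES the 2 kinds of fragment were nearly alike.

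**Figure D1:**
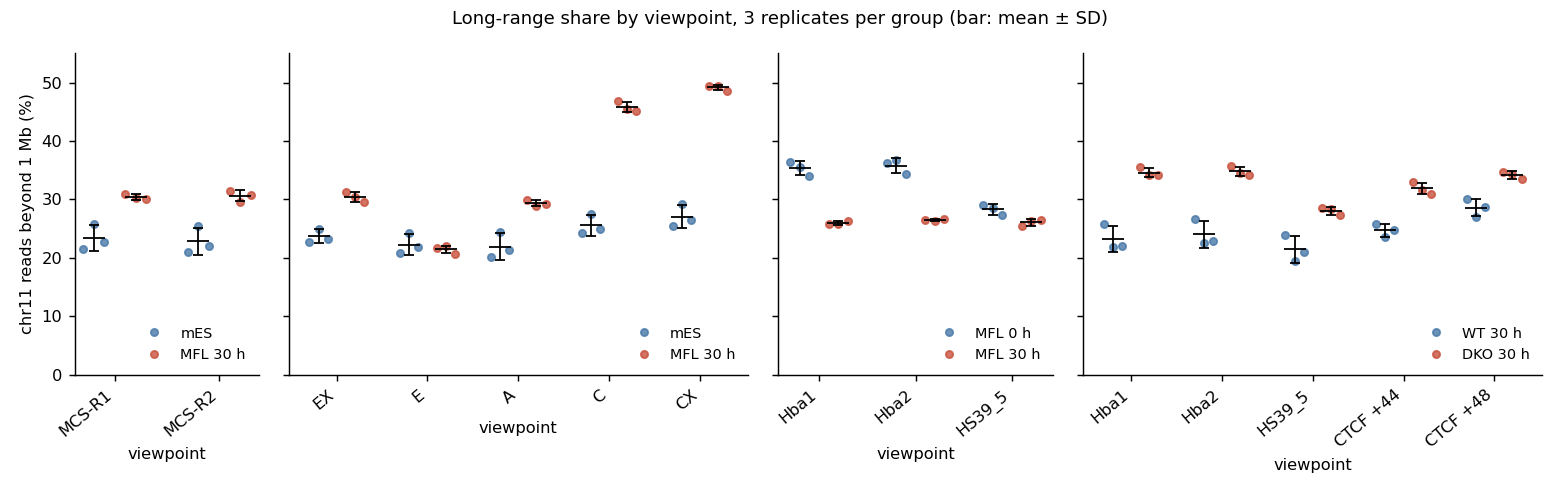
Percentage of chr11 reads on fragments more than 1 Mb from each viewpoint, with a point per replicate and bars for the mean ± SD of 3 replicates, for the 4 comparisons. MFL points lie above mES points except at E, 0 h points lie above 30 h points, and DKO points lie above WT points at all 5 viewpoints.

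Differentiation from 0 h to 30 h went with a smaller long-range share. It was 33.9%, 33.6% and 31.9% at 0 h and 25.9%, 26.1% and 26.5% at 30 h, groups that did not overlap (33.1% ± 1.09 and 26.2% ± 0.29, SD, n = 3, exact permutation p = 0.1). The globin promoters moved from 35.3% to 25.9% (Hba1) and from 35.8% to 26.5% (Hba2), and the CTCF site HS39_5 from 28.3% to 26.1%. All 3 viewpoints had non-overlapping groups, and whether the promoters differed from the CTCF site in this change was not tested. At 30 h the 3 viewpoints lay within 25.5% to 26.7% in every replicate.

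Loss of R1 and R2 went with a larger long-range share in cells of the 30 h stage. WT had 26.4%, 22.9% and 23.8% and DKO 33.5%, 32.6% and 32.02% (24.4% ± 1.83 and 32.7% ± 0.74, SD, n = 3, exact permutation p = 0.1, no overlap). From Hba1 the means were 23.2% and 34.6%, from Hba2 24.0% and 34.8%, from HS39_5 21.5% and 28.1%, from +44 24.7% and 31.9%, and from +48 28.6% and 34.2%. Each viewpoint had DKO replicates above all WT replicates. Without replicate 1 of both groups, the means were 23.4% and 32.3%. The deletions remove R1 and R2 from the chr11 total, and the paper reports fewer contacts inside the domain from Hba1 and Hba2 in DKO. How much of the difference in share comes with this denominator was not tested.

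The excess was unequal along the chromosome. In mES the share at 1 to 2 Mb was larger than in MFL, 3.84% against 3.02% from R1 and R2 and 4.10% against 3.54% from the FISH probe fragments. The second mean combines viewpoints that went opposite ways, with 3.77% in mES and 1.87% in MFL from E but 4.31% and 4.87% from C and 4.77% and 5.11% from CX, none of them with overlapping groups. From 5 Mb outward MFL had more: at 10 to 20 Mb 4.27% against 6.35% and 4.45% against 7.52%, at 20 to 29 Mb 4.29% against 7.00% and 4.42% against 8.81%, and at 29 to 60 Mb downstream 3.73% against 5.38% and 3.94% against 6.89%. Each of these classes had non-overlapping groups in both panels (exact permutation p = 0.1, 0.14 after Benjamini-Hochberg adjustment over the 7 classes). Beyond 60 Mb, where mES had 1.32% and 1.41% and MFL 1.72% and 1.65%, the groups overlapped (exact permutation p = 0.3 in both panels).

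The other 2 comparisons differed mainly nearer to the locus. At 30 h the share was lower than at 0 h at 1 to 2 Mb (2.98% to 2.08%), 2 to 5 Mb (3.92% to 2.61%), 5 to 10 Mb (3.65% to 2.33%), 10 to 20 Mb (6.79% to 5.13%) and 20 to 29 Mb (7.73% to 6.03%), each without overlap between the groups (exact permutation p = 0.1, adjusted 0.14). At 29 to 60 Mb it was 6.18% at 0 h and 6.02% at 30 h (exact permutation p = 0.8), and beyond 60 Mb 1.82% and 1.93%, with overlapping replicates. In DKO the same near classes were higher than in WT without overlap, from 2.16% to 3.33% at 1 to 2 Mb, 2.60% to 4.03% at 2 to 5 Mb, 2.11% to 3.12% at 5 to 10 Mb, 5.18% to 7.53% at 10 to 20 Mb and 6.10% to 7.72% at 20 to 29 Mb (exact permutation p = 0.1, adjusted 0.14). At 29 to 60 Mb WT had 4.82% and DKO 5.52% (exact permutation p = 0.3), and beyond 60 Mb 1.36% and 1.37%.

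The slope of the decline with distance was measured by a Poisson regression of reads on log10 distance from 1 to 29 Mb, where both sides of the locus exist. The exponent, the power of distance by which contacts declined, was -0.738 ± 0.021 in mES and -0.414 ± 0.034 in MFL from R1 and R2, and -0.749 ± 0.018 and -0.350 ± 0.031 from the FISH probe fragments (SD, n = 3, exact permutation p = 0.1). The decline was thus shallower in MFL than in mES in both panels. It was -0.378 at 0 h and -0.306 at 30 h, with overlapping groups (exact permutation p = 0.2), and -0.295 ± 0.039 in WT and -0.404 ± 0.019 in DKO, without overlap (SD, n = 3, exact permutation p = 0.1), though the DKO and WT replicates overlapped when fitted over 1 to 10 Mb or by least squares on log10 values (exact permutation p = 0.3 and 0.2). A single exponent describes the curves only in part. Over 1 to 10 Mb alone it was -1.40 and -1.43 in mES, -0.942 and -1.15 in MFL, -0.883 at 0 h, -0.956 at 30 h, -1.03 in WT and -1.07 in DKO, a steeper decline than over the full range. Beyond about 10 Mb the curves went up and down with position rather than falling further.

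**Figure D2:**
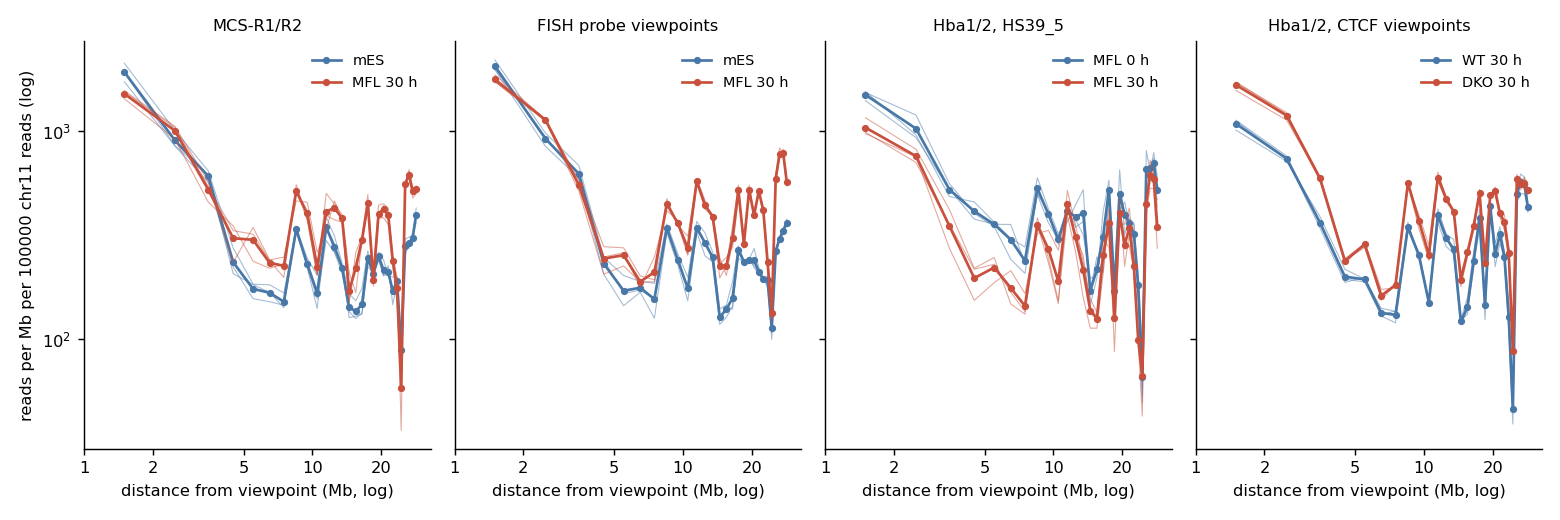
Reads per Mb per 100000 chr11 reads against distance from the viewpoint in Mb, both axes on a log scale, as the mean of 3 replicates for each group with both sides of the locus summed. Thin lines are the replicates. The mES curves lie above the MFL curves at 1 to 2 Mb and below them over most of 5 to 29 Mb, and DKO lies above WT over most of the range.

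Even the farthest contacts exceeded those with other chromosomes. The density of reads per Mb beyond 1 Mb on chr11 was above that on the other autosomes by a log2 ratio of 4.69 and 4.56 in mES and 3.60 and 3.75 in MFL, by 3.25 at 0 h and 2.76 at 30 h, and by 3.61 in WT and 4.04 in DKO (exact permutation p = 0.2 for DKO against WT). Beyond 60 Mb the log2 ratio was 2.50 and 2.41 in mES, 1.40 and 1.36 in MFL, 1.03 at 0 h, 0.93 at 30 h, 1.39 in WT and 1.41 in DKO. The excess over other autosomes was smaller in MFL than in mES, opposite to the long-range share of chr11 reads, and the share of reads on other chromosomes was larger in MFL. With the level on other autosomes subtracted as background, the differences in long-range share were 5.82 and 9.60 percentage points for MFL over mES, -7.44 for 30 h over 0 h and 8.37 for DKO over WT.

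The 2 sides of the locus were not used equally. The log2 ratio of reads per Mb at 1 to 29 Mb downstream over upstream was 0.178 ± 0.025 in WT and -0.109 ± 0.028 in DKO (SD, n = 3, exact permutation p = 0.1, no overlap), so that WT cells contacted more downstream and DKO cells more upstream chromatin. It was 0.092 in mES and -0.032 in MFL from R1 and R2 (exact permutation p = 0.1), 0.200 and 0.243 from the FISH probe fragments (exact permutation p = 0.2), and 0.038 at 0 h and 0.115 at 30 h (exact permutation p = 0.5). The 2 panels that compared mES with MFL therefore gave opposite directions for this ratio.

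Particular megabases were contacted above what their distance gave. For each replicate the reads of 116 bins of 1 Mb that lie wholly beyond 1 Mb of every viewpoint (the last ends with the chromosome) were set against the number expected from a smooth function of distance, and a bin was called preferred when the ratio of observed to expected passed 1.5 in every replicate. This held for 18 of 116 bins in mES and 20 in MFL from R1 and R2, for 19 and 22 from the FISH probe fragments, for 19 at 0 h and 19 at 30 h, and for 22 in WT and 21 in DKO. The bin at 4-5 Mb, which holds 25 protein-coding starts including those of Lif, a cytokine that keeps mES cells undifferentiated, and Nf2, a tumour suppressor, had the highest ratio in every MFL group, at 4.13 and 3.67 in MFL, 4.53 in WT and 3.78 in DKO, against 2.84 and 2.68 in mES. In mES the highest ratio was at 3-4 Mb, with 4.15 and 3.50. The bin at 53-54 Mb, with the interleukin genes Il4, Il5 and Il13 and the transcription factor gene Irf1, was at 3.05 and 3.28 in MFL and 2.09 and 1.95 in mES. The bin at 58-59 Mb, which holds 47 protein-coding starts, many of them of olfactory receptors, together with Trim58, a ubiquitin ligase of late erythroblasts, was at 3.03 and 3.36 in MFL, 3.13 at 0 h, 3.79 at 30 h, 3.19 in WT, 1.89 in DKO and 1.61 and 1.70 in mES. At the other end, the stretches at 91-93 Mb and 110-113 Mb were among the lowest, with 0.11 of expected in WT at 112-113 Mb, the bin of Sox9.

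**Figure D3:**
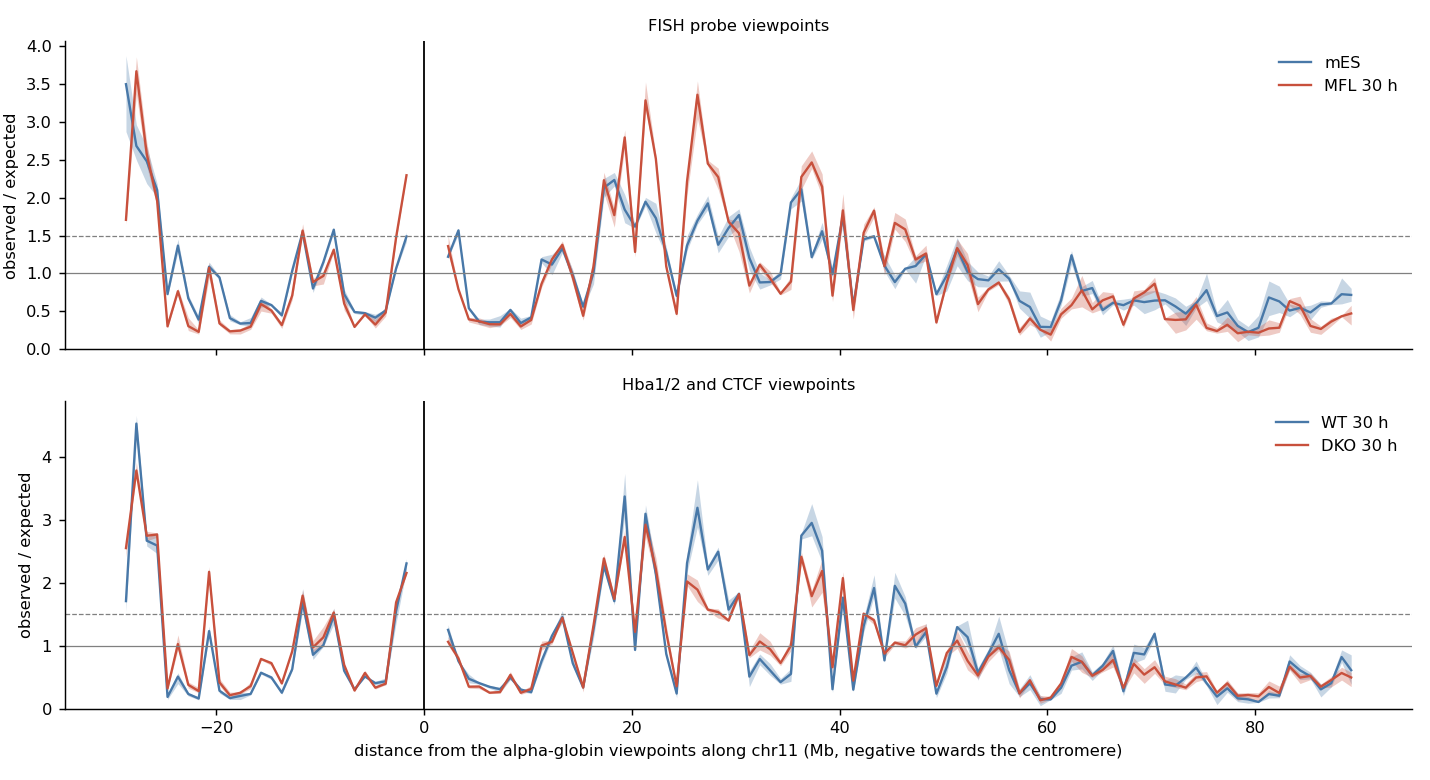
Observed over expected reads in 1 Mb bins against distance from the locus along chr11 in Mb, with the mean of 3 replicates as a line, their range as a band and a dashed line at 1.5. The peak about 26 Mb downstream, the bin at 58-59 Mb, is at 3.36 in MFL and 3.19 in WT and at 1.70 in mES and 1.89 in DKO.

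Most of the preferred megabases were rich in genes. Bins with over 15 protein-coding starts, 45 of the 116, made up 15 of 18 preferred bins in mES and 17 of 20 in MFL from R1 and R2, 14 of 19 and 19 of 22 from the FISH probe fragments, 16 of 19 at 0 h and at 30 h, 19 of 22 in WT and 16 of 21 in DKO. Bins with 5 or fewer starts gave 1 preferred bin in mES from the FISH probe fragments and 0 in the other groups. Across the 116 bins, Spearman's rho of the ratio with the number of protein-coding starts was 0.47 to 0.62 over the 8 groups and with GC content 0.33 to 0.46, while with the number of DpnII sites it was -0.02 to 0.06. These are descriptions over bins of the same libraries. The profiles of all groups were alike, and the order of rho between groups did not follow cell type alone. Depth ran from 409205 long-range reads in mES from the FISH probe fragments to 11605 in MFL from R1 and R2, and the viewpoints differed between panels. How much of the order of rho comes with depth and viewpoints was not tested. The rho was 0.977 between the mES panels, 0.909 between the MFL panels at 30 h from R1 and R2 and from the FISH probe fragments, and 0.886 between mES and MFL from the FISH probe fragments. DKO had a rho of 0.941 with WT, mES from the FISH probe fragments 0.911 with DKO and 0.824 with WT, and MFL from the FISH probe fragments 0.961 with DKO and 0.954 with WT.

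The share of long-range reads on the 45 bins with over 15 protein-coding starts differed in every comparison. It was 34.9% ± 0.83 in mES and 43.4% ± 0.47 in MFL from R1 and R2, and 34.8% ± 1.02 and 45.0% ± 0.44 from the FISH probe fragments (SD, n = 3, exact permutation p = 0.1 in both). It was 44.5% ± 2.2 at 0 h and 49.2% ± 2.3 at 30 h (SD, n = 3, exact permutation p = 0.1). In WT it was 49.8%, 47.6% and 48.9% and in DKO 40.9%, 39.9% and 40.4% (exact permutation p = 0.1). None of these pairs of groups overlapped. The 40 bins with 5 or fewer starts went the other way, with 31.7% in mES and 26.3% in MFL, 32.9% and 24.7%, 27.4% at 0 h and 22.7% at 30 h, and 22.1% in WT and 25.8% in DKO. DKO cells therefore placed a smaller share of their long-range reads on gene-rich megabases than WT cells, while the total they placed beyond 1 Mb was larger.

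Tested bin by bin with limma on log2(reads per 100000 chr11 reads + 10), adjusted over all bins tested, mES and MFL differed at 38 of 114 bins from R1 and R2 (33.3%), of which 33 were higher in MFL (28.9%) and 5 lower (4.39%). From the FISH probe fragments 73 of 116 bins passed (62.9%), 67 higher in MFL (57.8%) and 6 lower (5.17%). In that panel all MFL replicates but only mES replicate 3 had a second sequencing run, whose long-range share was above that of the first at every viewpoint. With the first run of each replicate alone, 55 bins passed, and the long-range share was 23.997% in mES and 33.6% in MFL, again without overlap. The median log2 difference over all bins was 0.33 and 0.48, the general excess given above. Scaled instead to 100000 reads beyond 1 Mb, which removes that excess, 10 bins were higher and 7 lower from R1 and R2 (8.62% and 6.03% of 116), and 29 higher and 30 lower from the FISH probe fragments (25.0% and 25.9%). The R1 and R2 count was the less stable: it was 12 without mES replicate 1, 13 without mES replicate 3, 17 without MFL replicate 3 and 12 with the replicate number as a block. Of the higher bins, 29 were shared, out of 33 from R1 and R2 and 67 from the FISH probe fragments. Among the 45 bins with over 15 starts, 35 rose and 0 fell in MFL from the FISH probe fragments, and 21 rose and 0 fell from R1 and R2. Among the 40 with 5 or fewer starts, 14 rose and 4 fell, and 8 rose and 4 fell.

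The bin at 58-59 Mb had the smallest p of all bins in both panels. From R1 and R2 it held 212, 262 and 218 reads per 100000 chr11 reads in mES and 647, 771 and 642 in MFL, a log2 difference of 1.53 (SE 0.17, limma adjusted p = 0.00226). From the FISH probe fragments it held 253, 268 and 244 in mES and 991, 840 and 917 in MFL, a log2 difference of 1.80 (SE 0.10, limma adjusted p = 1.9e-05). The difference was present inside and outside the domain, with 247 in mES and 554 in MFL from E and 288 and 1011 from CX. Within the bin, the 100 kb window at 58.7-58.8 Mb, with the histone genes Hist3h2a and Hist3h2ba and the ubiquitin ligase genes Trim11 and Trim17, held 29.1, 37.8 and 26.3 in mES and 151, 140 and 140 in MFL. The window at 58.4-58.5 Mb, with Trim58, held 13.9, 22.9 and 24.4 in mES and 129, 107 and 114 in MFL from the FISH probe fragments. From R1 and R2, at lower depth, that window was not apart, at 17.3 ± 2.15 in mES and 24.3 ± 9.21 in MFL (SD, n = 3). Both windows were chosen for the largest difference in mean in the bin from the FISH probe fragments.

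Other megabases that rose in MFL lay on both sides of the locus. The bin at 69-70 Mb, with 59 protein-coding starts including that of Polr2a, the largest subunit of RNA polymerase II, and Kdm6b, a histone H3K27 demethylase, held 133, 167 and 139 in mES and 518, 521 and 532 in MFL from the FISH probe fragments (log2 difference 1.78). From R1 and R2 it held 172, 167 and 144 against 496, 668 and 440 (log2 difference 1.65, limma adjusted p = 0.00226). The bin at 60-61 Mb held 186, 198 and 208 in mES against 560, 629 and 578 in MFL from the FISH probe fragments (log2 difference 1.53), with a smaller log2 difference of 0.71 from R1 and R2 (173, 223 and 228 against 330, 345 and 358, limma adjusted p = 0.0204). There its window at 60.7-60.8 Mb, with the kinase gene Map2k3, held 23.5 against 102 on average from the FISH probe fragments. Upstream, the bin at 11-12 Mb, which holds Ikzf1, the gene of the blood transcription factor Ikaros, held 195, 196 and 172 in mES and 565, 469 and 516 in MFL from R1 and R2 (log2 difference 1.41, limma adjusted p = 0.00226). From the FISH probe fragments it held 175, 217 and 185 against 377, 301 and 354 (log2 difference 0.81, limma adjusted p = 0.00125), which became 0.30 when scaled to reads beyond 1 Mb (limma adjusted p = 0.0536), and its ratio of observed to expected was 1.09 in mES and 1.08 in MFL. From R1 and R2 that ratio was 1.12 and 1.93. There the window at 11.5-11.6 Mb, which contains the start of Ikzf1, held 22.6, 20.5 and 17.6 in mES and 193, 125 and 112 in MFL. The windows of this paragraph were chosen for the largest rise in mean in their bin.

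Per 100000 chr11 reads, few bins were lower in MFL than in mES. Scaled to reads beyond 1 Mb, lower bins were about as many as higher ones, 30 and 29 from the FISH probe fragments and 7 and 10 from R1 and R2. The bin at 35-36 Mb, which lies close to the locus and has 4 protein-coding starts, held 957, 1086 and 965 in mES and 599, 579 and 625 in MFL from the FISH probe fragments (log2 difference -0.73, limma adjusted p = 0.000542), and 808, 940 and 896 against 633, 534 and 535 from R1 and R2 (log2 difference -0.63, limma adjusted p = 0.0254). From E it was 874 in mES and 233 in MFL, and from CX 1163 and 987. Its window with the largest fall in mean, at 35.7-35.8 Mb with Wwc1, a gene of the Hippo pathway, held 135 and 58.0. The bin at 12-13 Mb, next to the Ikaros bin and holding the actin nucleator gene Cobl, went the other way from its neighbour, with 166, 180 and 171 in mES and 108, 127 and 101 in MFL (log2 difference -0.58, limma adjusted p = 0.00291), and 153, 191 and 152 against 96, 52 and 76 from R1 and R2 (log2 difference -1.07, limma adjusted p = 0.0169). The bin at 7-8 Mb fell by 0.37 on the log2 scale from the FISH probe fragments (limma adjusted p = 0.0178), and the bin at 93-94 Mb by 1.26 from R1 and R2 (limma adjusted p = 0.0169) on a mean of 2.67 reads per MFL replicate. The lower calls from R1 and R2 were fragile: their count went from 5 to 0 without mES replicate 3 or with the replicate block, and to 1 without mES replicate 1 or without MFL replicate 3.

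**Figure D4:**
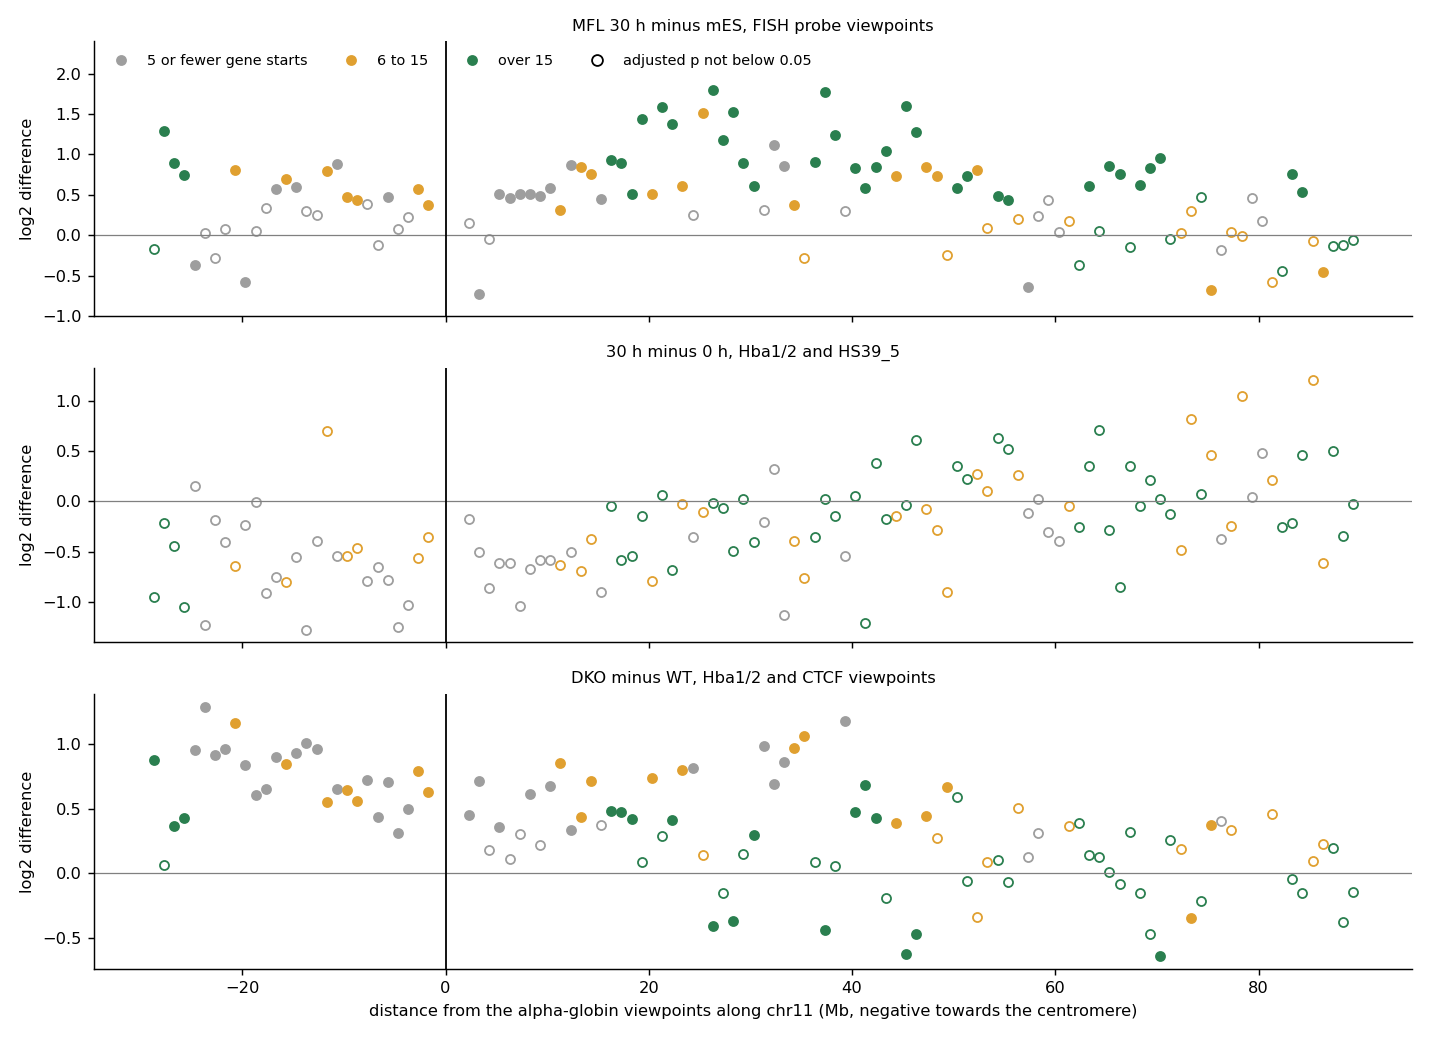
Log2 difference of each 1 Mb bin (reads per 100000 chr11 reads + 10) against its distance from the locus in Mb, for MFL over mES from the FISH probe fragments, 30 h over 0 h, and DKO over WT. Filled points passed the limma adjusted p of 0.05 and colour gives the number of gene starts. Upstream of the locus 27 of 28 DKO bins rose, and 6 of the 7 filled points below 0 in DKO are bins with over 15 starts.

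Between 0 h and 30 h no single megabase passed. Of 116 bins limma called 0 (0%), with 26 at an unadjusted p below 0.05, and edgeR's quasi-likelihood test on the reads called 13 (11.2%), 1 higher and 12 lower at 30 h, on runs summed as if independent. Long-range reads lay on few fragments in this comparison, 60289 on 10624 at 0 h and 21620 on 7695 at 30 h, against 119249 on 62088 in WT. For the bin at 58-59 Mb the SE was 0.26, against 0.17 and 0.10 for mES and MFL and 0.14 for DKO and WT. The count of 0 therefore does not show that single megabases stayed the same. The median log2 difference of all bins was -0.27. The bin at 58-59 Mb held 800 ± 136 reads per 100000 chr11 reads at 0 h and 785 ± 70 at 30 h (SD, n = 3, log2 difference -0.02). Its window at 58.4-58.5 Mb with Trim58 held 28.2 to 75.4 at 0 h and 111 to 146 at 30 h, groups that did not overlap, a window singled out after its values were seen.

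Long-range reads were distributed differently along the chromosome in DKO and WT. Of 110 bins 64 passed (58.2%), 57 higher in DKO (51.8%) and 7 lower (6.36%), with a median log2 difference over all bins of 0.39. Scaled to 100000 reads beyond 1 Mb, 24 bins were higher and 19 lower (20.7% and 16.4% of 116), with a median log2 difference of 0.009. Upstream of the locus 27 of 28 bins rose and 0 fell, with a median log2 difference of 0.71. Downstream as far as 61 Mb 16 of 27 rose and 2 fell, from 61 to 90 Mb 13 of 29 rose and 3 fell, and from 90 Mb on 1 of 26 rose and 2 fell. Scaled to reads beyond 1 Mb, the counts of higher and lower bins were 15 and 1 upstream, 5 and 4 to 61 Mb, 4 and 8 from 61 to 90 Mb, and 0 and 6 from 90 Mb on. Gene-poor and gene-rich bins differed: of bins with 5 or fewer starts 28 rose and 0 fell, with a median log2 difference of 0.66, whereas of bins with over 15 starts 11 rose and 6 fell, with a median of 0.085. At the other scaling these medians were 0.29 and -0.34.

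Among the megabases that rose in DKO, the bin at 11-12 Mb held 320, 237 and 277 reads per 100000 chr11 reads in WT and 623, 646 and 628 in DKO (log2 difference 1.17, limma adjusted p = 0.00082). From Hba1 it went from 245 ± 74 to 770 ± 18 (SD, n = 3) and from HS39_5 from 301 to 547. Its windows at 11.7-11.8 Mb, with the DNA repair gene Fignl1 and Ddc, the gene of dopa decarboxylase, and at 11.8-11.9 Mb held 40.5 and 35.0 in WT and 122 and 127 in DKO. The 10 kb window at the start of Ikzf1 itself held 11.3 and 20.3. The bin at 17-18 Mb, with the RNA-processing genes Pno1 and C1d, held 145, 134 and 128 in WT and 260, 275 and 267 in DKO (log2 difference 0.93, SE 0.096, limma adjusted p = 0.00082). The bin at 66-67 Mb, with the muscle myosin genes Myh2 and Myh3, held 73, 70 and 61 against 138, 140 and 150 (log2 difference 0.97, limma adjusted p = 0.00082). Bins were named only where WT and DKO replicates did not overlap. The 100 kb windows were those with the largest rise in mean in their bin. Neither separation is therefore a finding of its own.

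The 7 megabases that fell in DKO were at 58-59, 60-61, 69-70, 77-78, 78-79, 102-103 and 105-106 Mb. The bin at 102-103 Mb held 126, 104 and 103 in WT and 60, 64 and 80 in DKO (log2 difference -0.65, SE 0.13, limma adjusted p = 0.00553). The bin at 77-78 Mb held 296, 209 and 270 against 167, 153 and 167 (log2 difference -0.63, limma adjusted p = 0.00695), and that at 78-79 Mb 223, 205 and 218 against 168, 145 and 146 (log2 difference -0.47, limma adjusted p = 0.0065). The bin at 58-59 Mb held 652, 509 and 690 against 480, 486 and 411 (log2 difference -0.41, limma adjusted p = 0.0388). Of these 7 bins, 6 were also among the 33 that were higher in MFL than in mES from R1 and R2 and among the 67 from the FISH probe fragments, comparisons that share no library with DKO and WT. Bins higher in MFL were 28.9% and 57.8% of all bins tested, and of the 57 bins higher in DKO, 12 and 35 were likewise higher in MFL. Scaled to reads beyond 1 Mb, 13 of the 19 bins lower in DKO were among the 29 higher in MFL and 0 among the 30 lower in MFL, while of the 24 higher in DKO 1 was among the 29 and 12 were among the 30.

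The 100 kb windows given here had the largest fall in mean from WT to DKO in their bin, a choice that favours large differences. The window at 77.8-77.9 Mb, with Dhrs13, Flot2, the gene of a membrane scaffold protein, and Eral1, a GTPase of mitochondrial ribosome assembly, held 72.8, 68.8 and 75.6 in WT and 29.9, 24.0 and 19.99 in DKO. Its neighbours at 77.9-78.0 Mb, with the signalling adaptor gene Traf4, and at 78.0-78.1 Mb, with the elongation factor gene Supt6h, held 48.8 and 38.2 in WT and 22.4 and 15.5 in DKO. At 10 kb resolution the window at 77.88-77.89 Mb in Eral1, the region of the 77.8 Mb sequence above, held 25.9, 41.4 and 39.8 in WT (157 reads in all) and 8.02 ± 5.08 in DKO (32 reads), with 25.0 ± 7.99 in MFL and 1.14 ± 0.50 in mES from the FISH probe fragments (SD, n = 3). The window at 58.76-58.77 Mb over Trim17, Hist3h2a and Hist3h2ba held 42.3, 15.9 and 37.7 in WT and 11.4, 23.5 and 2.88 in DKO, groups that overlapped, with 17.0 in MFL and 2.73 in mES. These 10 kb windows were taken as the highest of WT beyond 10 Mb, a choice that favours lower values in DKO, so their heights and their differences between WT and DKO are descriptions. The median of 10185 such windows was 0.698 in WT.

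Beyond 60 Mb, the highest 100 kb window in WT contained the start of Slc4a1, 70.0 Mb from the α-globin cluster. Slc4a1 is the gene of band 3, the anion exchanger of the red cell membrane. The window at 102.2-102.3 Mb, which also holds Slc25a39, a gene of a mitochondrial carrier, with Rundc3a and Grn, held 33.6, 28.8 and 45.9 reads per 100000 chr11 reads in WT and 4.58, 6.11 and 7.51 in DKO, groups that did not overlap. Among 298 windows of 100 kb beyond 60 Mb it ranked 1 in WT, where the median window held 3.56 and the next highest, at 94.8-94.9 Mb, 18.7. In DKO it ranked 84 (median window 3.99). It ranked 1 in MFL from the FISH probe fragments at 20.5 ± 10.7, with 19.8 at 95.2-95.3 Mb next. From R1 and R2 in MFL it ranked 2 at 34.6 ± 18.1 (SD, n = 3), behind 101.9-102.0 Mb at 37.8. It ranked 6 at 30 h with 27.0 ± 12.8 and 39 at 0 h with 13.5 ± 14.8, where 1 replicate held 0 reads. The highest at 30 h were 102.0-102.1 Mb at 36.3 and 102.7-102.8 Mb at 34.3. Which gene of this stretch was contacted was not tested. In mES the Slc4a1 window ranked 55 at 6.57 from R1 and R2 and 167 at 4.15 ± 1.59 from the FISH probe fragments (SD, n = 3). The 10 kb window with the Slc4a1 start held 9.89 ± 5.03 in WT (44 reads) and 0.842 in DKO (3 reads). The window was singled out after its values were seen, and only the 1 Mb bin around it was tested.

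**Figure D5:**
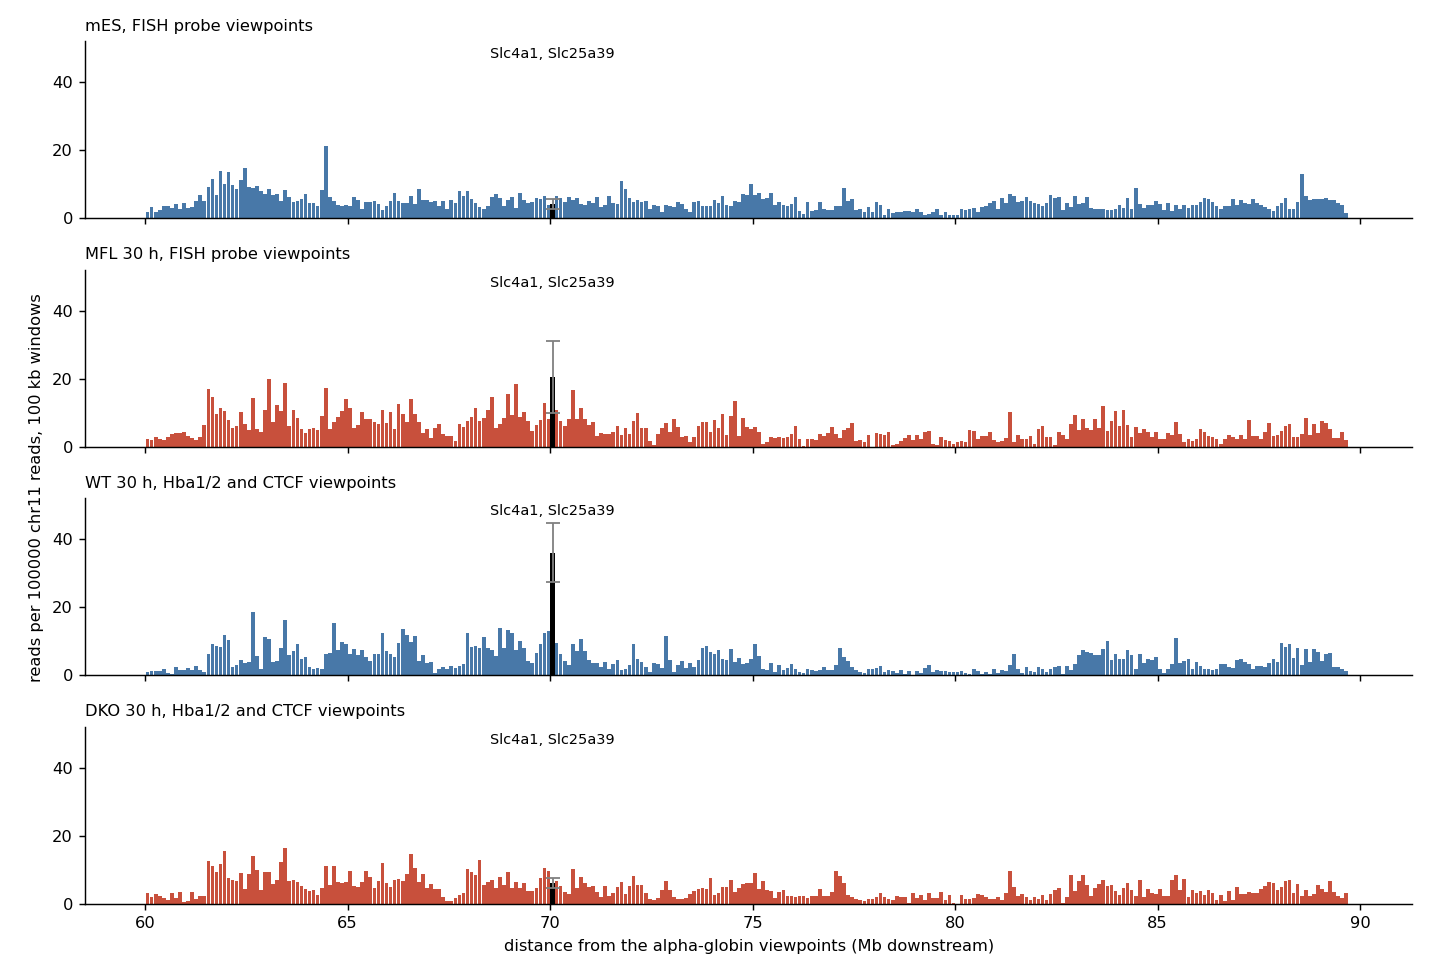
Reads per 100000 chr11 reads in the 298 windows of 100 kb more than 60 Mb from the locus, against distance in Mb, as means of 3 replicates. The black bar, with the SD over replicates, is the Slc4a1 window, at 36.1 in WT and 6.07 in DKO, and the tall mES bar about 64 Mb away (96.6-96.7 Mb, 21.3) comes mostly from 1 fragment reported from C.

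Bins of the listed blood genes did not move as 1 group. A list drawn up for blood and erythroid cells had 10 genes (Slc4a1, Slc25a39, Trim58, Bcl11a, Ikzf1, Stat5a, Stat5b, Itga2b, Meis1 and Chac2), though no label ties Chac2 to blood. Their starts lay in 7 bins, of which 3 were higher in MFL from R1 and R2 and 6 from the FISH probe fragments. The median log2 differences were 0.81 and 0.62 against 0.33 and 0.48 over all bins. Of all bins tested 28.9% and 57.8% were higher in MFL. Bins with 11 genes that erythroid cells do not use (GABA receptor subunits, keratins, muscle myosins, Ebf1, Il3 and Csf2) also numbered 7, of which 3 and 5 were higher in MFL, with medians of 0.73 and 0.59. In DKO the blood gene bins had 4 higher and 2 lower (median 0.56) and the others 4 higher and 0 lower (median 0.33), against a median of 0.39 and 51.8% higher over all bins. The 2 lower were those of Trim58 and of Slc4a1 with Slc25a39 and Itga2b. Bins of Meis1 and Bcl11a, transcription factor genes of stem and progenitor cells and of globin switching, rose in DKO by log2 differences of 1.01 and 0.56. Scaled to reads beyond 1 Mb, the Meis1 bin was at 0.67 (limma adjusted p = 0.00359). The Bcl11a bin was then at 0.15 and did not pass (limma adjusted p = 0.387). Between 0 h and 30 h none of these bins passed, at medians of -0.36 and -0.58 against -0.27 over all bins. The bin at 100-101 Mb belongs to both lists, through Stat5a, Stat5b and Krt14, so megabase bins cannot separate the 2 kinds of gene there.

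The single libraries give values with no replicate. From R1 and R2 together the long-range share was 29.9% in WT (95% Wilson interval 29.5 to 30.2%) and 45.6% in AMKO (45.3 to 46.0%), intervals that cover counting error only. The deletion removes fragments near R1 and R2 from the chr11 total, and how much of this difference comes with the denominator was not tested. AMKO was above WT in every distance class, with 2.21% and 2.75% at 1 to 2 Mb, 5.68% and 8.97% at 10 to 20 Mb, 7.10% and 10.8% at 29 to 60 Mb and 2.26% and 3.07% beyond 60 Mb. Single megabases did not follow this in common. The bin at 69-70 Mb held 741 reads per 100000 chr11 reads in WT and 1243 in AMKO and that at 11-12 Mb 430 and 897, whereas 58-59 Mb held 830 (760 to 907) and 928 (865 to 996) and 102-103 Mb 268 (229 to 314) and 170 (144 to 200, 95% Wilson intervals). The bin of Slc4a1 was thus lower in AMKO than in its WT partner, against the direction of the share as a whole.

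With RNA polymerase II elongation inhibited for 3 h the long-range share was 30.5% (29.8 to 31.3%), against 28.6% (27.5 to 29.7%) with DMSO for 3 h and 29.9% (28.998 to 30.8%) untreated (95% Wilson intervals). The DRB interval overlapped the untreated one and lay above that of DMSO, its matched control; these intervals cover counting error only, and the spread between libraries of 1 condition is not known. These libraries had 4654 to 12900 reads per viewpoint, and with 1 library each no test of the treatment was possible.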

How the data were processed

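NG Capture-C reads were trimmed with Trim Galore and aligned to mm9 with Bowtie, per the submitters' processing notes, and the authors turned them into interactions with their own pipeline. Versions are not given in the sources used here. The deposited files list, for every DpnII fragment and viewpoint, reads per 100000 reporter reads, a depth-scaled value of the RPM kind. Whole reads were recovered from the steps of these values in all columns used except 3 (A in run 1 of mES replicate 1, EX in run 1 of MFL replicate 2, and Hba2 with DRB).

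Reads of all runs of a replicate were summed, targets on chr11 more than 1 Mb from the viewpoint kept and values divided by all chr11 reads of the viewpoint. Profiles were averaged over the viewpoints of a comparison and binned in 1 Mb. Bins were tested with limma 3.58.1 (R 4.3.3) on log2(reads per 100000 chr11 reads + 10) with Benjamini-Hochberg adjustment at 0.05, and the other values with two-sided exact permutation tests over replicates. edgeR 4.0.16 was an alternative, with E, C and CX only for the FISH probe fragments. Gene starts came from the GENCODE annotation of mm9. For each comparison and direction, the bins named were the 3 with the smallest adjusted p whose replicates did not overlap. Also named were the 3 highest and lowest by observed over expected, and those holding the 2 gene lists. The 100 kb windows given inside bins were mostly those with the largest difference in mean in the called direction. Other regions were singled out after their values were seen. Members, lists and tests were chosen with earlier results of these data known. The bin test was also run on simulated independent reads with a fixed dispersion. That setting did not model reads that repeat on the same fragment, so no support is drawn from it. Same-numbered replicates deviated together in the FISH probe panel (r of 0.165, 0.362 and 0.140) and between 0 h and 30 h (0.100, 0.122 and 0.251), which counts as pairing; the block changed the calls from 73 to 78 and from 0 to 0. Sequencing runs of a replicate were counted as 1 sample. At 0 h and 30 h their bin profiles differed by less than sampling noise (chi-square per degree of freedom 0.349 to 0.736), while the second run had a higher chr11 share and a lower long-range share at every viewpoint. In the FISH probe panel profiles differed by more (1.56 to 4.05), with a higher long-range share in the second run. Replicates are called biological in the labels.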

Additional observations from a re-analysis of the deposited data

How the results depend on the processing

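The long-range share kept its direction under all 49 alternatives, the share on gene-rich bins and the downstream to upstream ratio under 28 each, and the decay exponent under 40 of 41. With all reads as the total, the shares of mES and MFL from R1 and R2 overlapped (difference 0.847 percentage points, exact permutation p = 0.2). The DKO and WT exponents overlapped over 1 to 10 Mb (difference -0.045), by least squares (-0.039) and by least squares with background subtracted (-0.024). The exponent that turned was that of 30 h against 0 h, 0.072 over 1 to 29 Mb and reversed to -0.073 over 1 to 10 Mb; the cause was not tested. With 1 replicate left out, the differences ranged from 6.53 to 8.68 (R1 and R2), 10.4 to 12.1 (FISH probe fragments), -7.62 to -6.60 (30 h against 0 h) and 7.59 to 9.34 percentage points (DKO). Counts of bins past the threshold ranged from 12 to 38, 56 to 80, 0 to 0 and 53 to 78. From R1 and R2 the count of 38 became 17 when scaled to reads beyond 1 Mb and 12 with the replicate block. For 30 h against 0 h the count of 0 became 6, all lower, with a pseudocount of 50 and 13 with edgeR. For DKO the block gave 62, and leaving out replicate 1 of both groups 70, alternatives of which the second was chosen after seeing the data. Same-numbered replicates did not deviate together from R1 and R2 (r of -0.029, 0.040 and -0.167) or in DKO and WT (-0.069, -0.054 and -0.275), so that there the numbers only name samples. With the replicate number as a block the differences of shares and exponents stay as they are and the smallest p is 0.25. Of 234 values of named bins under alternatives, 217 kept their call, 17 missed the threshold and 0 reversed; those lost were of 12-13, 93-94 and 35-36 Mb from R1 and R2 and 12-13 and 7-8 Mb from the FISH probe fragments. The share of long-range fragments with only 1 read ran from 14.1% at 0 h to 80.4% in mES from R1 and R2. At 0 h 60289 long-range reads lay on 10624 fragments, and in mES from R1 and R2 44082 lay on 34269. Equal depth therefore did not mean equal numbers of distinct fragments, and comparisons were made on sums over windows.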

Other observations

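In the mES libraries of the FISH probe fragments, 3 long-range fragments held 100 reads or more, all of them reported from the viewpoint C. They were chr11:45773702-45773743 with 218 reads, chr11:86591137-86591288 with 159 reads and chr11:96660918-96661191 with 310 reads. Each made up a sizeable part of what C reported in its megabase, 15.6%, 33.1% and 66.2% of the reads. Without the 3 fragments, the count of bins that differed between mES and MFL from these viewpoints was again 73.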
